A study of Mus musculus with 84 samples.

Results

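Wnt ligands and their Frizzled receptors were followed across mouse mammary glands, mammary tumors and lung metastases, on every cDNA clone whose only gene symbol was Wnt or Fzd followed by a digit. On the larger spotted array, the 15k array, 12 of 15360 clones met this rule, and 11860 clones carried a single symbol. They stood for 9 genes: the ligand genes Wnt3a, Wnt5a and Wnt5b with 1 clone each, and the receptor genes Fzd1, Fzd4 and Fzd5 with 2 clones each and Fzd6, Fzd8 and Fzd9 with 1 clone each. On the smaller 8.7k array, 8 of 8832 clones met the rule, for Wnt3a, Wnt5a, Wnt5b, Fzd1, Fzd4 and Fzd5. Every one of these clones had enough values to be tested.

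The 15k arrays held 5 mammary glands of virgin nontransgenic FVB mice aged 9 weeks (VMG), 7 hyperplastic glands of MMTV-Wnt-1 transgenic mice of the same age (WntH), 23 mammary tumors of MMTV-Wnt-1 mice aged 9 to 56 weeks (WntT) and 12 mammary tumors of MMTV-Neu mice aged 32 to 60 weeks (NeuT). They also held lung metastases of MMTV-Wnt-1 mice (10, WntM) and of MMTV-Neu mice (3, NeuM), 2 lung metastases grown in nontransgenic mice from primary tumor cells of MMTV-Neu mice given by tail vein, and intestinal fat of 3 virgin FVB mice aged 12 weeks. The 8.7k arrays used here held 10 WntT tumors and 6 tumors of MMTV-Wnt-1 mice in a P53-/- background, aged 9 to 14 weeks. Both transgenes are controlled by mouse mammary tumor virus sequences that act mainly in mammary epithelium, for Wnt-1 through enhancer elements of the viral long terminal repeat. The Neu transgene is the wild-type rat gene. The MMTV-Wnt-1 mice were of mixed, mostly FVB background and the MMTV-Neu mice were FVB, so that oncogene, age and genetic background cannot be told apart in a comparison of the tumors. Transgene and background likewise cannot be told apart in WntH or WntT against the FVB glands of VMG. Age is a further difference between the tumors, up to 56 or 60 weeks, and the glands of 9 weeks. The ages of the mice with metastases are not given in the sources used here.

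Each value is the authors' normalized log2 ratio of a sample to a reference that was the same on every array, a pool of RNA from lactating mammary gland and other mouse organs, and a value of 0 means a level equal to that of the reference. Differences between groups are differences of mean log2 ratios from limma, fitted over all clones of an array type, with Benjamini-Hochberg adjusted p under 0.05 for a called clone. Folds are ratios of geometric means. The labels do not say that each array is a separate animal, so p-values measure the spread between arrays, which may in part be technical. No clone on either array carried the symbol Wnt1, Erbb2 or Trp53 alone, so that neither transgene nor the P53 status could be checked in these values. The SD of the log2 ratios on a 15k array ran from 0.67 to 2.59 with a median of 0.936, and 6 arrays had an SD above 1.3.

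Wnt proteins are secreted, lipid-modified ligands that bind Frizzled proteins, receptors that span the membrane and resemble G protein-coupled receptors. In the canonical branch a Frizzled and the co-receptor Lrp5 or Lrp6 pass the signal to beta-catenin, which enters the nucleus and acts on genes together with TCF/LEF proteins. Wnt3a is a classical canonical ligand, whereas Wnt5a and Wnt5b are known mainly for signaling without beta-catenin, in cell movement and in the branching of the mammary gland. Wnt-1 itself is a canonical ligand, and its activation by mouse mammary tumor virus led to its discovery as a mammary oncogene.

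Promoter sequences were read from RefSeq (GRCm38.p6) to show the letters upstream of a ligand gene and 2 receptor genes that were called between the groups and had a window. Each window runs 5′ to 3′ on the gene's strand, from 250 bases before to 50 bases after an annotated start. They were searched on both strands for CTTTGAT and CTTTGTT, core letters of TCF/LEF binding sites, and a match is in capitals. Wnt5b has 3 annotated starts on the minus strand of chromosome 6. The window at chr6:119449337-119449636 holds CTTTGAT once, and the windows at chr6:119467162-119467461 and chr6:119544298-119544597 hold neither motif. The window of Fzd1 (chr5:4758167-4758466, minus strand) and that of Fzd4 (chr7:89404116-89404415, plus strand) hold neither motif. Of all 32851 windows of this length, 3.73% hold CTTTGAT, 5.85% hold CTTTGTT and 9.33% hold at least 1 of them. The match is a description of these letters and was not tested as a binding site.
Wnt5b: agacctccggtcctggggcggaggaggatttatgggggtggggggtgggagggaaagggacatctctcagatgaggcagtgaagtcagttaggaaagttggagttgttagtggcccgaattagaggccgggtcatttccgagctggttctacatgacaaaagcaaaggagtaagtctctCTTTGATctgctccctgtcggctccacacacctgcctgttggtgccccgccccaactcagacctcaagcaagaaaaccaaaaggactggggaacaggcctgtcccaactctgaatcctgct
Fzd1: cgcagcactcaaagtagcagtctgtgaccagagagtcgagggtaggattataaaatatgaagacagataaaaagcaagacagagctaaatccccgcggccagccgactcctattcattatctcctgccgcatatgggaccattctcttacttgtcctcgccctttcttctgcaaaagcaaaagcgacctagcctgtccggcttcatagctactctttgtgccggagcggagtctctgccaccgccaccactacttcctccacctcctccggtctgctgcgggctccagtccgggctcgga
Fzd4: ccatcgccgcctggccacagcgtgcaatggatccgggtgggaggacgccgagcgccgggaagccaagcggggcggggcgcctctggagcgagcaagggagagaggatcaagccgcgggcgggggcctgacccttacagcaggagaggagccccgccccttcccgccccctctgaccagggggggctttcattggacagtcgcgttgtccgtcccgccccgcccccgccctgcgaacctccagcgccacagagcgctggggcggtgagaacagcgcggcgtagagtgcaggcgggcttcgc
The Fzd1 window is 54% G or C, and that of Fzd4 72.7%. The windows of Wnt3a, Fzd5 and Fzd9 hold neither motif. Windows for Wnt5a, Fzd6 and Fzd8 were not used here.

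The clones moved in both directions in most comparisons of tissue types. The figure of log2 differences gives the comparisons of tumors and glands side by side. Between WntT and NeuT, 7 of 12 clones were called (4 higher and 3 lower in WntT), where 43.6% of all 15360 clones were called (21.7% higher and 21.9% lower). In WntH against VMG 5 of 12 were called (2 higher, 3 lower) beside 21.9% of all clones (8.93% higher and 13% lower). WntT against WntH gave 8 of 12 (3 higher, 5 lower) beside 41.7% (20.1% higher and 21.7% lower). WntT against VMG gave 9 of 12 (4 higher, 5 lower) beside 49.4% (24.3% higher and 25.1% lower). NeuT against VMG gave 8 of 12 (2 higher, 6 lower) beside 52.2% (24.9% higher and 27.3% lower). With so many clones called in the whole table, a count of this size is not in itself a result about Wnt and Frizzled genes. The median log2 difference of the 12 clones was -0.02 in WntT against NeuT beside -0.04 over all clones, and -0.52 in NeuT against VMG beside 0.00 over all clones. The comparisons of WntH, WntT and NeuT with VMG share the same 5 control arrays.

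**Figure D1:**
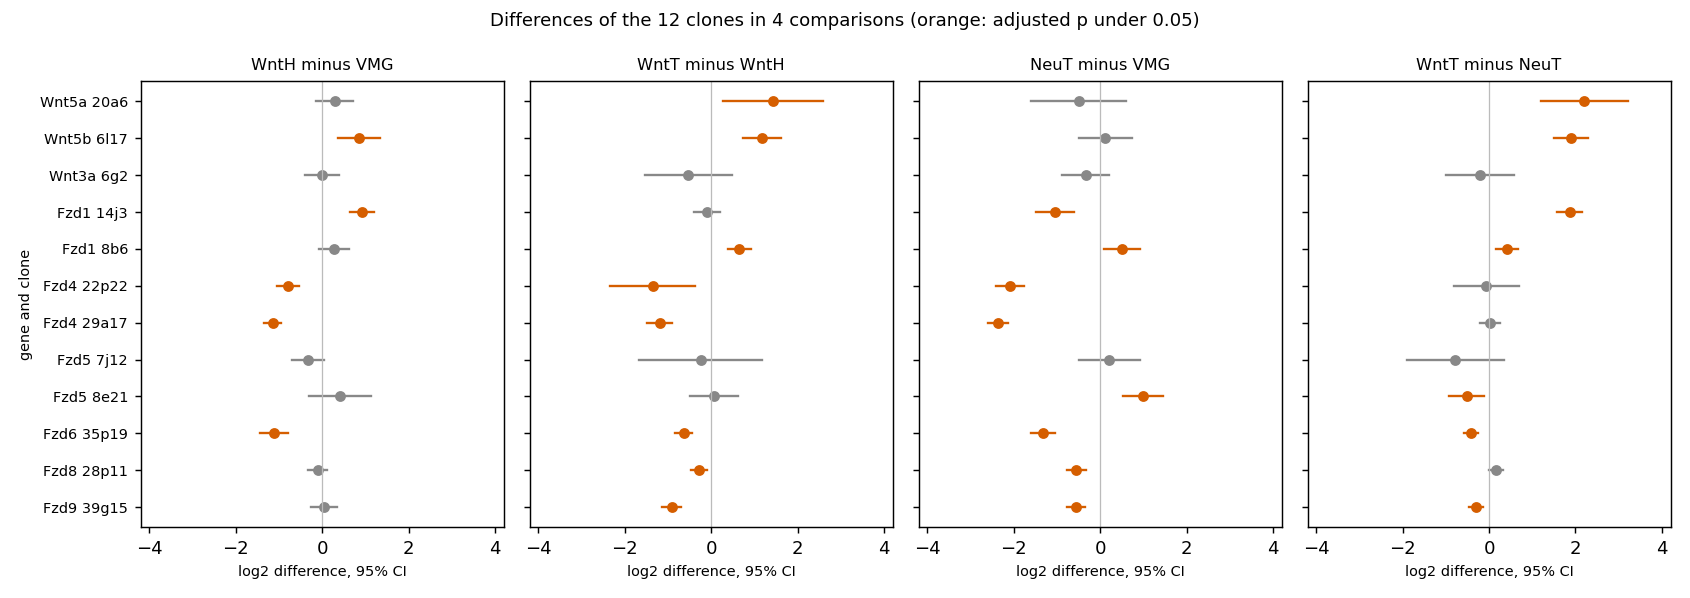
Log2 difference of each Wnt and Frizzled clone (points) with its 95% confidence interval from limma (lines), in WntH minus VMG, WntT minus WntH, NeuT minus VMG and WntT minus NeuT. Orange marks an adjusted p under 0.05 over all 15360 clones. Wnt5b lies right of 0 in the Wnt-1 comparisons, both Fzd4 clones lie left of 0 except between the tumors, and the clones 14j3 and 8b6 of Fzd1 lie on opposite sides of 0 in NeuT minus VMG.

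Wnt5b rose in steps from gland to hyperplasia to Wnt-1-induced tumor, and was not called between Neu-induced tumors and the gland. The 5 VMG arrays read 0.24, 1.04, 0.69, 0.57 and 0.20. The 7 WntH arrays ran from 0.38 over a median of 1.54 to 1.82, and the 23 WntT arrays from 1.74 over 2.55 to 3.65. In NeuT the 12 arrays ran from -0.34 over 0.80 to 1.45. All 23 WntT arrays were thus above all VMG and all NeuT arrays, and 6 of 7 WntH arrays were above every VMG array. WntH exceeded VMG 1.8-fold (log2 difference 0.85, 95% confidence interval 0.36 to 1.34, adjusted p = 0.0168). WntT exceeded WntH 2.27-fold (log2 difference 1.18, adjusted p = 4.55e-05). NeuT and VMG differed by 0.12 on the log2 scale (95% confidence interval -0.48 to 0.73, adjusted p = 0.738). The call of WntH against VMG was lost without VMG array 29 (adjusted p = 0.0525) and when all groups of the array type were fitted together (adjusted p = 0.0586).

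Wnt5a was the most uneven of the called clones among the Wnt-1-induced tumors. The 5 VMG arrays read 0.84, 0.79, 0.98, 1.12 and 1.11, an SD of 0.15. The 7 WntH arrays ran from 0.40 over a median of 1.40 to 1.74. The 23 WntT arrays ran from -0.60 over 2.39 to 6.82, an SD of 1.52, which was larger than that of 97.6% of all clones in the same tumors. Tumors 66 and 69 stood at 6.82 and 6.36, above the next at 4.07, and tumor 79 alone stood below 0. In NeuT the 12 arrays ran from -2.30 over 0.42 to 2.55, and the SD of 1.25 was larger than that of 97.7% of all clones. WntT was 2.69-fold above WntH (log2 difference 1.43, adjusted p = 0.0427) and 3.28-fold above VMG (log2 difference 1.72, adjusted p = 0.033), whereas WntH against VMG was not called (log2 difference 0.29, 95% confidence interval -0.14 to 0.71, adjusted p = 0.334).

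The Wnt5a differences depended on the arrays included and, as calls, on the test. WntT against VMG kept its direction but not its call on leaving out any single VMG array (adjusted p from 0.056 to 0.0676), and WntT against WntH lost its call without the arrays of wide spread (adjusted p = 0.0501). Without tumors 66 and 69 the log2 differences of WntT were 1.84 against NeuT (adjusted p = 0.000102), 1.06 against WntH (adjusted p = 0.0177) and 1.34 against VMG (adjusted p = 0.00752). The ratio of arithmetic means, to which those tumors contribute most, gave 7.35-fold for WntT over NeuT in place of 4.62-fold. In order of mean level, WntT stood first, followed by WntM, WntH, VMG, fat, NeuM and NeuT, and no neighbors in this order differed beyond their spread when all groups were fitted together (adjusted p from 0.18 to 1).

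**Figure D2:**
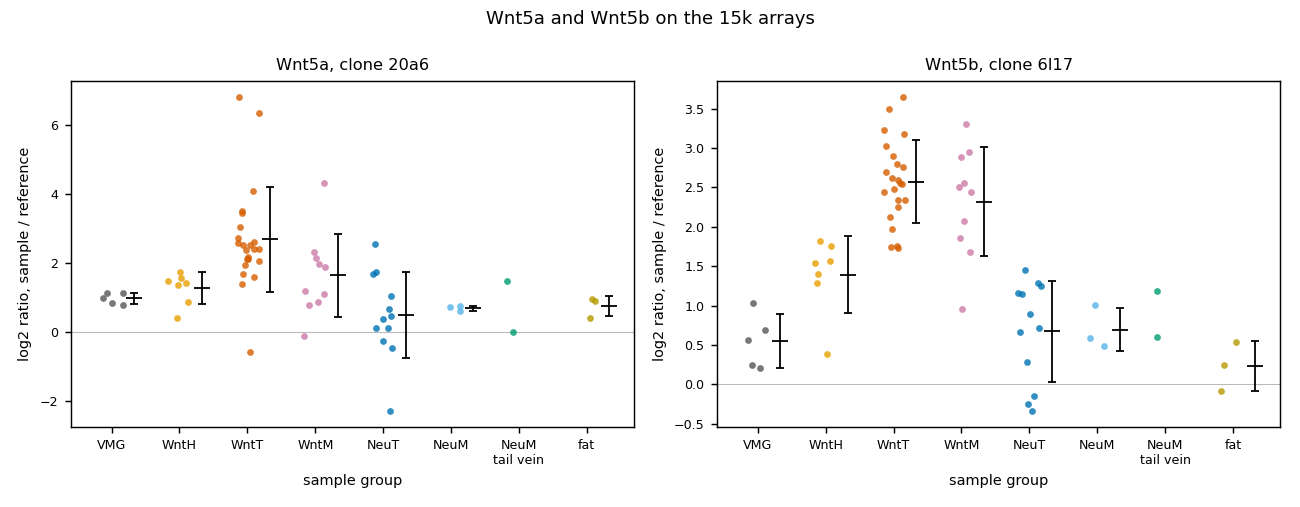
Log2 ratio of sample to reference for Wnt5a (left) and Wnt5b (right) on the 15k arrays, 1 point for an array, by group, with the mean and SD beside groups of 3 or more arrays. Wnt5b in WntT lies between 1.74 and 3.65, above all VMG and NeuT arrays, and Wnt5a in WntT spreads from -0.60 to 6.82.

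For Wnt5b the order of means was WntT, WntM, WntH, NeuM, NeuT, VMG and fat. In this order only WntM and WntH differed as neighbors (log2 difference 0.93, adjusted p = 0.00481), so that the Wnt-1 tumors and metastases formed the upper end and all Neu samples, VMG and fat the lower. The third ligand, Wnt3a, was called in no comparison. Its values ran from -0.95 to -0.32 in VMG, from -5.65 over -0.69 to 0.20 in WntT and from -2.17 over -0.99 to -0.09 in NeuT, so the groups overlapped.

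Both clones of Fzd1 were higher in WntT than in NeuT, but they differed in size and, in other comparisons, in direction. In clone 14j3 the 5 VMG arrays read 1.17, 0.75, 0.54, 0.83 and 0.56. The 7 WntH arrays ran from 1.41 over a median of 1.70 to 1.93, all above VMG, and the 23 WntT arrays from 1.01 over 1.60 to 2.44. The 12 NeuT arrays ran from -0.90 over -0.40 to 0.50, all below VMG and all below WntT. WntH exceeded VMG 1.89-fold (adjusted p = 0.000329) and WntT exceeded NeuT 3.64-fold (log2 difference 1.86, 95% confidence interval 1.58 to 2.15, adjusted p = 2.32e-13). WntT and WntH differed by -0.10 on the log2 scale (95% confidence interval -0.39 to 0.20, adjusted p = 0.628). No step from hyperplastic gland to tumor was called in this receptor clone, whereas such a step was called in Wnt5b.

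Clone 8b6 of Fzd1 gave smaller differences. The 5 VMG arrays read -0.10, -0.78, -0.17, -0.37 and -0.57. The 7 WntH arrays ran from -0.54 to 0.16, the 23 WntT arrays from -0.10 over 0.57 to 1.13, and the 12 NeuT arrays from -0.56 over 0.01 to 1.09. WntT exceeded NeuT 1.33-fold (adjusted p = 0.00519) and VMG 1.9-fold (adjusted p = 5.8e-06), which were the directions of clone 14j3. WntH against VMG was not called in 8b6 (log2 difference 0.27, adjusted p = 0.252), and WntT exceeded WntH 1.57-fold (adjusted p = 0.000116), where the difference in 14j3 was -0.10 and not called. NeuT against VMG was called in both clones with opposite signs, with a log2 difference of -1.04 in 14j3 (adjusted p = 0.000418) and of 0.51 in 8b6 (adjusted p = 0.0351). The call in 8b6 was lost without VMG array 17, 28 or 29 (adjusted p from 0.0596 to 0.112). Which parts of the Fzd1 transcript the clones cover was not analysed here, so no level of Fzd1 in NeuT relative to VMG can be given from these clones.

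Fzd4 fell from gland to tumor under both oncogenes, and both of its clones showed it. Fzd4 is the receptor of norrin as well as of Wnt proteins and is well known for its role in blood vessels. In clone 29a17 the 5 VMG arrays read 0.75, 0.97, 1.02, 1.09 and 0.81. The 7 WntH arrays ran from -0.35 over -0.24 to -0.01, the 23 WntT arrays from -2.37 over -1.38 to -0.66, and the 12 NeuT arrays from -1.80 over -1.44 to -1.07. VMG, WntH and tumors did not overlap. VMG exceeded WntH 2.22-fold (adjusted p = 1.44e-05), WntT 5.04-fold (adjusted p = 1.28e-12) and NeuT 5.13-fold (adjusted p = 7.63e-12). WntT and NeuT differed by 0.03 on the log2 scale (95% confidence interval -0.21 to 0.26, adjusted p = 0.877).

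Clone 22p22 of Fzd4 gave the same directions. Its 5 VMG arrays read 0.62, 0.30, 0.43, 0.91 and 0.74, and its 7 WntH arrays ran from -0.37 over -0.16 to 0.02. The 23 WntT arrays ran from -7.12 over -1.32 to -0.57 and the 12 NeuT arrays from -1.91 over -1.51 to -1.01. The value of -7.12 came from tumor 42, an array with an SD of 1.78 over all its clones. VMG exceeded WntH 1.73-fold (adjusted p = 0.000481), WntT 4.44-fold (adjusted p = 0.00224) and NeuT 4.24-fold (adjusted p = 2.03e-09). When all groups of the array type were fitted together, WntH against VMG was not called in this clone (adjusted p = 0.306). In bulk tissue fewer cells of a type and less RNA in each cell cannot be told apart.

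Intestinal fat held the highest Fzd4 of all groups. Its 3 arrays read 2.77, 2.43 and 2.34 in clone 22p22 and 2.34, 2.21 and 1.92 in clone 29a17, all above the VMG arrays. Fat exceeded VMG 3.76-fold in 22p22 (adjusted p = 0.00243) and 2.35-fold in 29a17 (adjusted p = 0.00461, and 0.0687 after the arrays were scaled to equal spread). Over the 12 clones, 4 were called between fat and VMG (3 higher, 1 lower) beside 9.09% of all clones (5.31% higher and 3.78% lower). Between fat and both tumor groups together 6 were called (4 higher, 2 lower) beside 53.3% (21.8% higher and 31.6% lower). Against the tumors Fzd4 was 16.5-fold (22p22) and 11.9-fold (29a17) higher in fat. The 2 clones lower in fat than in the tumors were Wnt5b (log2 difference -1.69, adjusted p = 0.0193) and Fzd1 8b6 (log2 difference -0.69, adjusted p = 0.0111). That of Wnt5b was lost without any single fat array (adjusted p from 0.0507 to 0.0872) and without the arrays of wide spread (0.0568), and that of Fzd1 8b6 without fat array 45 (0.0897).

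**Figure D3:**
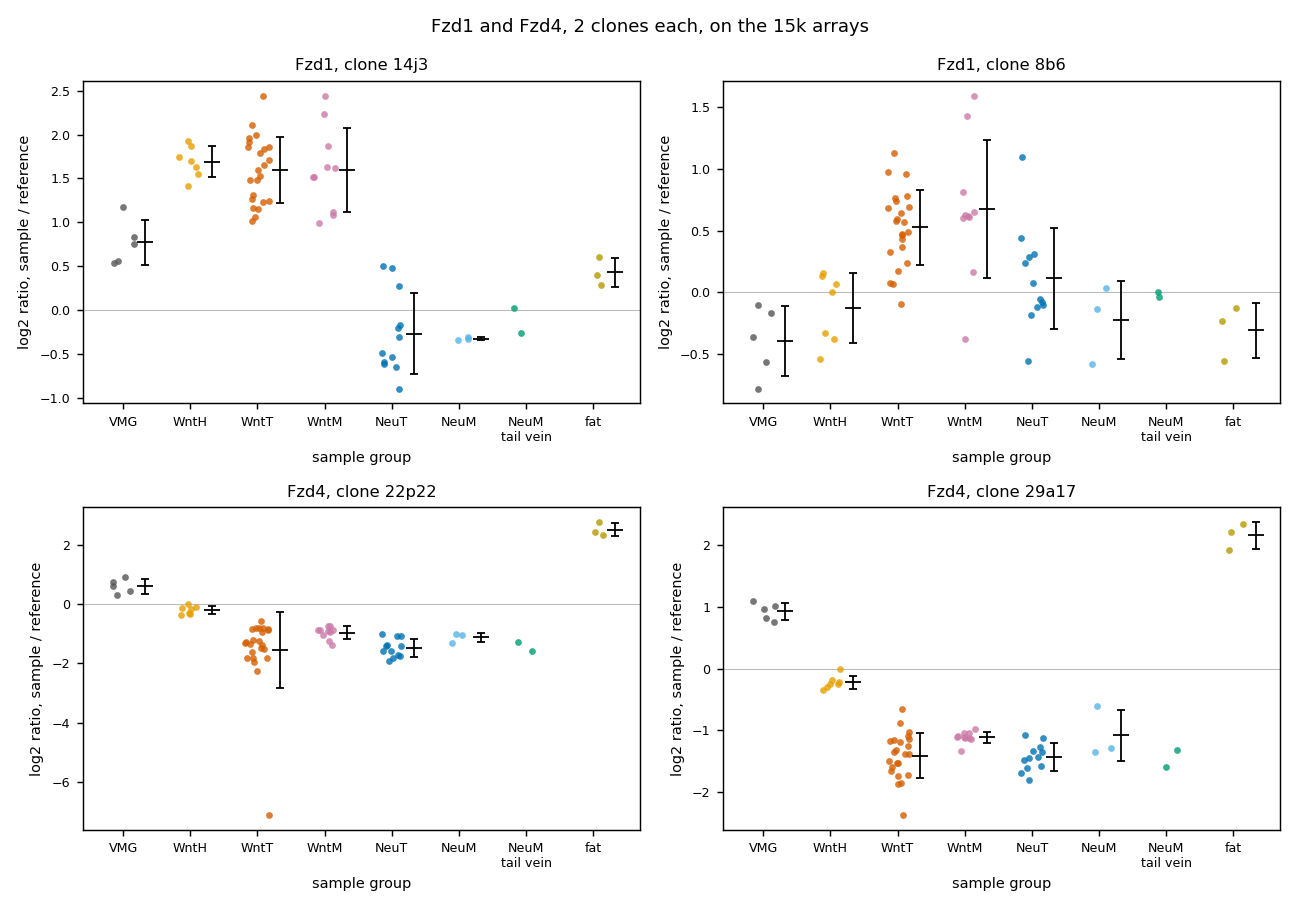
Log2 ratio of sample to reference for the 2 clones of Fzd1 (top) and the 2 clones of Fzd4 (bottom) on the 15k arrays, 1 point for an array, by group, with the mean and SD beside groups of 3 or more arrays. Fzd1 14j3 separates WntT (1.01 to 2.44) from NeuT (-0.90 to 0.50), and Fzd4 29a17 goes down from fat over VMG and WntH to the tumors.

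The adipocyte markers moved the same way as Fzd4. Of 13 measured adipocyte genes, 10 were lower in WntH than in VMG, 12 were lower in WntT and 13 in NeuT, and 11 were higher in fat. Their median log2 difference was -1.08 in WntH, -2.88 in WntT and -2.98 in NeuT against VMG, beside -0.02, -0.02 and 0.01 over all 7766 genes. Over all genes, 14.3% were called lower in WntH, 26.5% in WntT and 28.8% in NeuT than in VMG, and 4.3% higher in fat. Their mean log2 ratio ran from 1.85 to 2.18 in VMG, from 0.78 to 1.24 in WntH, from -2.05 to -0.70 in WntT, from -1.81 to -1.0 in NeuT and from 2.62 to 3.41 in fat. Between WntT and VMG the 13 adipocyte genes differed by -0.46 (Plin1, a coat protein of lipid droplets) to -7.38 (Car3, a carbonic anhydrase) on the log2 scale. Of these, 8 differed by more than both Fzd4 clones, among them Adipoq (-5.30) and Fabp4 (-6.16), and 5 by less, among them Lipe (-1.40), Lep (-1.86) and Acvr1c (-0.64, not called). Endothelial markers were also lower, beside the same shares of all genes, 10 of 12 genes in WntT against VMG and 10 of 12 in NeuT against VMG. In WntH against VMG 6 of the 12 were lower and 1 higher (median log2 difference -0.59). Of the same 12, 2 were higher in fat than in VMG and none lower. In fat against both tumor groups 9 were higher and 1 lower, beside 21.2% and 33% of all genes. Their mean log2 ratio ran from -0.24 to 0.30 in VMG, from -0.45 to -0.27 in WntH and from -1.14 to -0.38 in WntT. It ran from -1.14 to -0.81 in NeuT and from 0.36 to 0.52 in fat. Skeletal muscle markers, 7 of 7 measured genes, were lower in WntT than in VMG, with a mean log2 ratio from 2.40 to 3.33 in VMG, from 2.08 to 3.11 in WntH and from -1.90 to 0.71 in WntT. Of 7 fibroblast and matrix genes 6 were lower in WntT and 6 in NeuT than in VMG. Luminal epithelial markers went the other way in Wnt-1 tissue, with 4 of 7 higher in WntH and 5 of 7 higher in WntT than in VMG, beside 9.58% and 26% of all genes. The part of these cell types in the fall of Fzd4 and of the other receptors was not tested. These lists were chosen with earlier results of these data known.

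Fzd6, a Frizzled known for planar cell polarity, followed a similar course. The 5 VMG arrays read 1.69, 1.57, 1.5, 1.84 and 1.61. The 7 WntH arrays ran from 0.03 over 0.64 to 0.86, the 23 WntT arrays from -0.44 over -0.09 to 0.24, the 12 NeuT arrays from -0.43 over 0.38 to 0.59, and fat read 2.20, 2.10 and 1.92. VMG thus lay above every hyperplastic gland and tumor. VMG exceeded WntH 2.16-fold (adjusted p = 0.000279), WntT 3.36-fold (adjusted p = 2.09e-15) and NeuT 2.51-fold (adjusted p = 1.33e-07). Unlike Fzd4, Fzd6 was called between the tumors, with WntT 0.42 below NeuT on the log2 scale (95% confidence interval -0.58 to -0.25, adjusted p = 5.3e-05). Fat and VMG did not overlap but were not called (log2 difference 0.43, adjusted p = 0.068).

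Fzd9 and Fzd8 were not called between hyperplastic gland and VMG and were lower in the tumors. In Fzd9 the 5 VMG arrays read 1.36, 1.18, 1.27, 1.14 and 0.99, and the 7 WntH arrays ran from 0.73 over 1.35 to 1.55, a log2 difference of 0.05 (95% confidence interval -0.25 to 0.35, adjusted p = 0.849). The 23 WntT arrays ran from -0.12 over 0.32 to 0.96, all below VMG, and the 12 NeuT arrays from 0.29 over 0.67 to 0.85, also all below VMG. WntH exceeded WntT 1.89-fold (adjusted p = 6.8e-08), and WntT was 0.30 below NeuT on the log2 scale (adjusted p = 0.0027). For Fzd8 the log2 differences were smaller, -0.38 in WntT (adjusted p = 0.00398) and -0.55 in NeuT (adjusted p = 0.000339) against VMG, whose arrays read -0.02, -0.06, 0.13, 0.17 and 0.34. Fat stood at 1.09, 1.09 and 0.65 in Fzd8 (1.78-fold over VMG, adjusted p = 0.0205) and at 0.60, 0.68 and 0.66 in Fzd9, below VMG (adjusted p = 0.0321). Each of these fat calls was lost on leaving out single arrays (VMG 17, 27 or 28 and fat 45, and for Fzd9 also fat 46), with adjusted p from 0.0516 to 0.0752.

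**Figure D4:**
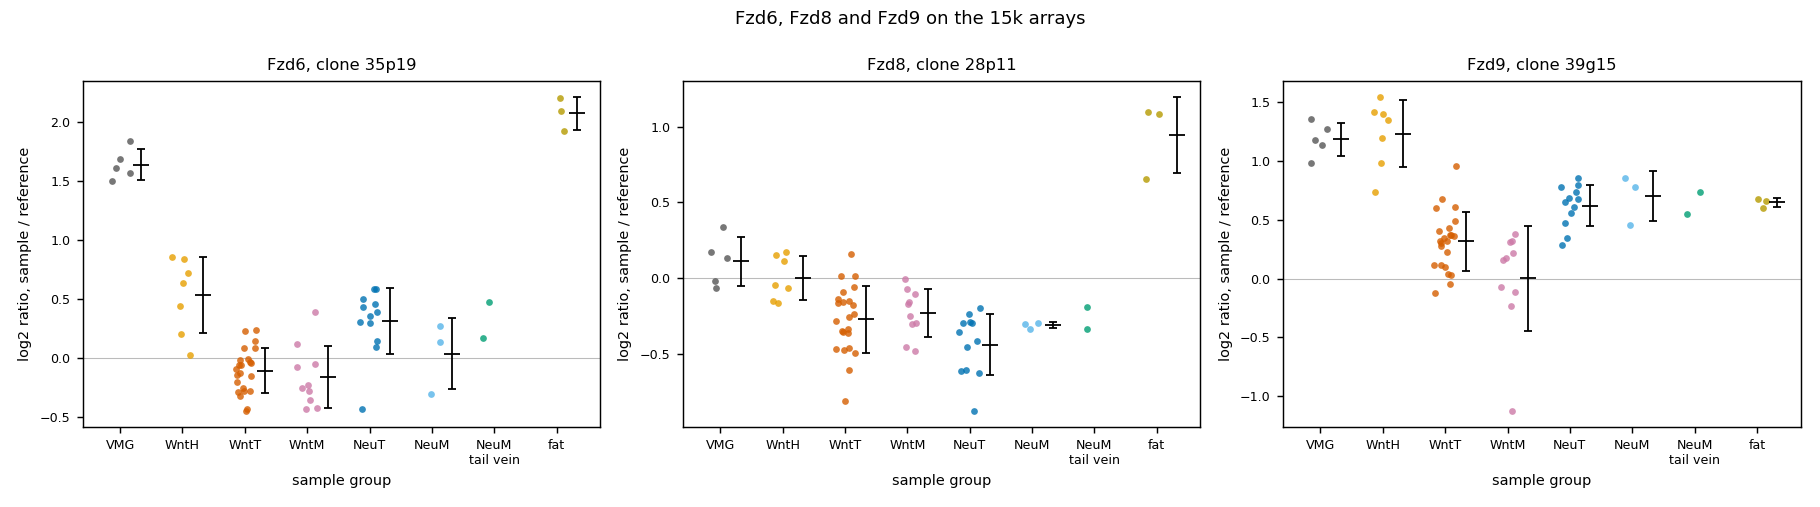
Log2 ratio of sample to reference for Fzd6, Fzd8 and Fzd9 on the 15k arrays, 1 point for an array, by group, with the mean and SD beside groups of 3 or more arrays. Fzd6 is below VMG in every WntH array, whereas Fzd9 in WntH (0.73 to 1.55) overlaps VMG and lies lower in the tumors.

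The 2 clones of Fzd5 did not move together. Clone 7j12 was called in no comparison, and its values ran as low as -6.52 in WntT and -6.44 in WntM. Its sequence accession differs between the annotation of the array types, so that its gene is uncertain. Clone 8e21 was 1.99-fold higher in NeuT than in VMG (adjusted p = 0.00099). In that clone the VMG arrays read 0.59, -0.12, -0.06, -0.64 and -0.96 and the 12 NeuT arrays ran from 0.03 over 0.73 to 1.41. It was 0.52 lower on the log2 scale in WntT than in NeuT (adjusted p = 0.0311), a call lost under quantile normalization (adjusted p = 0.0513) and when all groups were fitted together (adjusted p = 0.0738).

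Other genes of the pathway were counted by role, from lists that hold no Wnt or Frizzled gene. Of 6 measured genes of secreted modulators and ligand processing, 4 were higher and 1 lower in WntT than in NeuT, with a median log2 difference of 1.11 beside -0.03 over all 7766 genes, of which 22.8% were called higher and 23% lower. Sostdc1, a secreted antagonist of Wnt and bone morphogenetic proteins, was 7.69-fold higher (adjusted p = 7.04e-16), Dkk3 4.91-fold (adjusted p = 1.15e-12) and Apcdd1, a membrane inhibitor of Wnt signaling, 3.44-fold (adjusted p = 1.6e-11). Of 7 genes on the list of co-receptors and other Wnt-binding receptors, called co-receptors below, 3 were higher and 1 lower. The list is broad and also holds Lgr4 and Rnf43, which are not co-receptors in the strict sense. Gpc3, a cell surface proteoglycan, was 4.3-fold higher (adjusted p = 3.15e-11), Ptk7, a co-receptor of planar cell polarity, 2.35-fold (adjusted p = 1.38e-14) and Lgr4, a receptor of R-spondins, 1.35-fold (adjusted p = 3.54e-05). Of 16 signal transducers 7 were higher and none lower, led by Axin2, a feedback inhibitor and a standard canonical target, at 4.73-fold (adjusted p = 9.45e-14). Tcf7l2 was 1.5-fold (adjusted p = 0.00348) and Nkd2 1.46-fold higher (adjusted p = 0.00129).

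In WntH against VMG 1 modulator, 3 co-receptors and 3 transducers were called, where 9.58% of all genes were higher and 14.3% lower. Of the 6 modulators only Sostdc1 was higher (1.92-fold, adjusted p = 0.000355). Of the 7 co-receptors Rnf43, a ligase that removes Frizzled from the cell surface, was 2.28-fold higher (adjusted p = 0.000199), Lgr4 1.39-fold higher and Gpc3 lower by a log2 difference of -0.74. Of the 16 transducers Nkd1 (2.32-fold, adjusted p = 0.000188), Axin2 (1.72-fold, adjusted p = 0.0125) and Axin1 (1.19-fold) were higher. In NeuT against VMG, where 26.8% of all genes were higher and 28.8% lower, none of the 6 modulators was higher and 3 were lower, namely Apcdd1 (log2 difference -3.58, adjusted p = 3.86e-10), Sostdc1 (-1.53) and Dkk3 (-1.35). Of the 7 co-receptors 3 were higher and 2 lower. Gpc3 (log2 difference -3.12) and Ptk7 (-1.72) were the lower ones, and Rnf43 was 4.11-fold higher (adjusted p = 1.46e-09). Of the transducers 8 were higher and 4 lower, with Nkd1 4.27-fold higher (adjusted p = 5.73e-10), Ctnnb1, the gene of beta-catenin, 2.5-fold higher (adjusted p = 0.0395) and Axin2 lower (log2 difference -1.42, adjusted p = 6.14e-05). In WntT against VMG, where 26% of all genes were higher and 26.5% lower, 3 of the modulators, 4 of the co-receptors and 10 of the transducers were higher, and 1, 3 and 1 were lower. Apcdd1 (log2 difference -1.80, adjusted p = 1.42e-08), Gpc3 (-1.01) and Ptk7 (-0.49), although higher in WntT than in NeuT, were lower in WntT than in VMG. Sostdc1 (2.67-fold), Dkk3 (1.92-fold), Lgr4 (1.89-fold) and Axin2 (1.77-fold) were higher in WntT than in VMG, and Tcf7l2 and Nkd2 were not called.

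Markers of several cell types differed between the tumors. Of 7 measured myoepithelial and basal genes 6 were higher in WntT than in NeuT (median log2 difference 1.21), beside 22.8% of all genes. In the same comparison 7 of 12 endothelial genes were higher and 1 lower, 4 of 7 fibroblast and matrix genes were higher (median 0.70), and 4 of 7 luminal epithelial genes were higher and 1 lower (median 0.61), among them Krt19, a keratin, at 65.7-fold. Of the myoepithelial genes 5 were lower in NeuT than in VMG (median -1.26), beside 28.8% of all genes, a comparison in which Wnt5a and Wnt5b were not called and the Fzd1 clones had opposite signs. In WntT against VMG 3 of the 7 were higher (median 0.16), beside 26% of all genes. Their mean log2 ratio ran from -0.03 to 1.01 in WntT, from -1.87 to -0.83 in NeuT, from -0.14 to 0.16 in VMG and from -0.03 to 0.68 in WntH. In WntH against VMG 2 of the 7 were higher, beside 9.58% of all genes. The part of these cell types in the differences of Wnt5a, Wnt5b and Fzd1 between the tumors was not tested.

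No Wnt or Frizzled clone separated lung metastases from primary tumors at this number of arrays. None of the 12 clones was called in WntM against WntT, where 4.62% of all clones were called, and none in NeuM against NeuT, where 0.195% were. At an unadjusted p under 0.05, limma gave 2 clones in WntM against WntT, Fzd4 29a17 (log2 difference 0.30, adjusted p = 0.154) and Fzd9 (log2 difference -0.32, adjusted p = 0.134), and none in NeuM against NeuT. Wnt5a ran from -0.12 over 1.53 to 4.31 in WntM, a log2 difference of -1.05 from WntT (95% confidence interval -2.12 to 0.03, adjusted p = 0.275). Wnt5b ran from 0.96 over 2.47 to 3.30 in WntM, a log2 difference of -0.25 (95% confidence interval -0.69 to 0.18, adjusted p = 0.557). The change from tumor to metastasis was not called as different between the oncogenes in any of the 12 clones (0.0651% of all clones called, and none of the 12 at an unadjusted p under 0.05).

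Between metastases of the 2 oncogenes, 2 of 12 clones were called, both higher in WntM, beside 15.2% of all clones (7.13% higher and 8.07% lower). In Fzd1 14j3 the 3 NeuM arrays read -0.34, -0.30 and -0.34, and all 10 WntM arrays, from 0.99 over 1.56 to 2.44, lay above them (3.81-fold, adjusted p = 0.000393). In Wnt5b the 3 NeuM arrays read 0.49, 1.00 and 0.59, and 9 of 10 WntM arrays were above them (3.08-fold, adjusted p = 0.0138). The Wnt5b call was lost without NeuM array 53 (adjusted p = 0.0665) or 61 (adjusted p = 0.0653). The 2 tail-vein metastases read -0.27 and 0.02 in Fzd1 14j3 and 0.60 and 1.19 in Wnt5b, below or at the low end of WntM. Lung epithelial markers were higher in the metastases than in the tumors, 5 of 7 measured genes in WntM (beside 2.88% of all genes) and 3 of 7 in NeuM (beside 0.155%), with a mean log2 ratio from -0.54 to 1.48 in WntM beside -3.71 to -2.11 in WntT. Between WntM and NeuM none of these 7 was higher and 1 was lower, beside 7.53% and 9.07% of all genes. There 6 of 7 myoepithelial and basal genes (median log2 difference 1.115), 3 of 7 luminal epithelial and 4 of 12 endothelial genes were higher in WntM. The part of these cell types in these values was not tested.

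On the 8.7k arrays, none of the 8 clones was called between the P53-/- and the other Wnt-1-induced tumors, where 0.442% of all clones were called. At an unadjusted p under 0.05, limma gave 1 clone, that of Wnt5b. The 6 P53-/- tumors ran from 0.21 over a median of 1.20 to 1.88 and the 10 WntT tumors from 1.21 over 2.28 to 3.46, a log2 difference of -1.22 (95% confidence interval -1.84 to -0.59, adjusted p = 0.068). The groups overlapped, with 3 of the 6 P53-/- tumors below every WntT tumor. The methods' permutation t-test, exact over all 8008 splits, gave P = 0.002 for this clone, above the threshold of 0.001 in those methods, and the clone was called when arrays were scaled to equal spread. Wnt5a ran from 0.60 over 1.32 to 3.44 in the P53-/- tumors and from 0.96 over 2.19 to 2.56 in WntT (adjusted p = 0.693). Fzd4 22p22 stood at a median of -1.60 in the P53-/- tumors and of -2.18 in WntT (adjusted p = 0.355), and Fzd1 14j3 at 1.3 and 1.66 (adjusted p = 0.87).

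**Figure D5:**
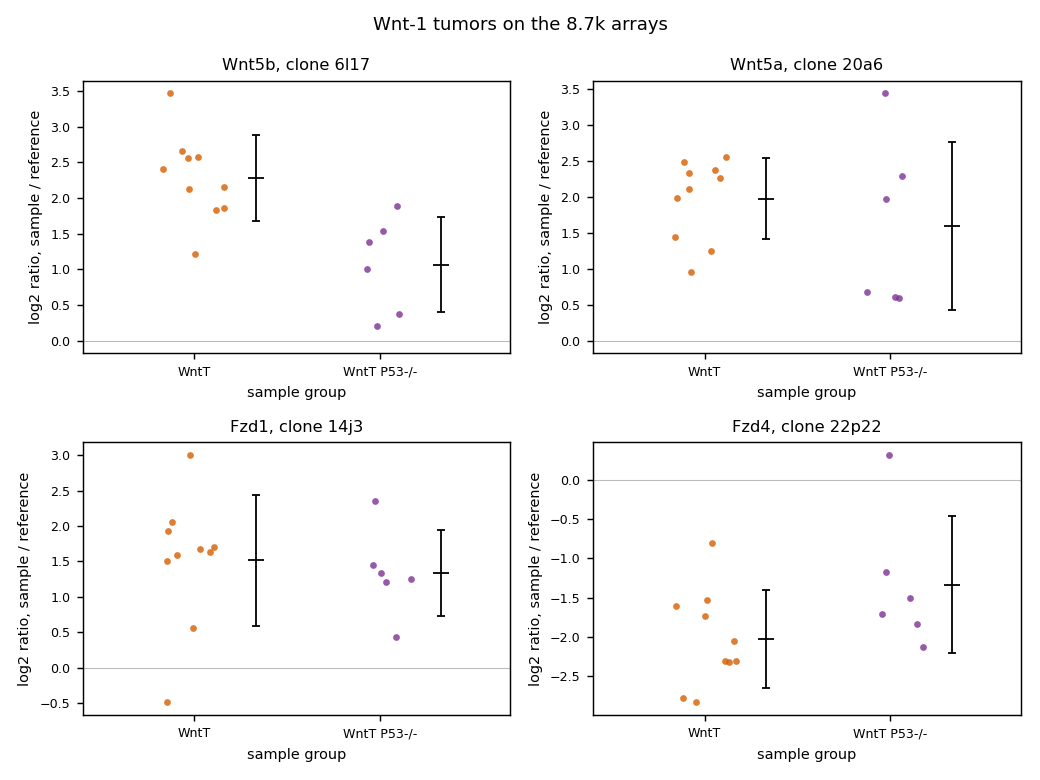
Log2 ratio of sample to reference for Wnt5b, Wnt5a, Fzd1 14j3 and Fzd4 22p22 on the 8.7k arrays, 1 point for a tumor, with mean and SD, in WntT (10 tumors) and in the P53-/- background (6 tumors). The Wnt5b means are 2.28 and 1.07 with overlapping tumors.

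Within the 23 WntT tumors, 3 pairs among Wnt5a, Wnt5b and Fzd4 were compared. Wnt5a and Wnt5b gave a Pearson r of 0.169 and a Spearman rho of 0.039 (permutation p = 0.442 and 0.861, adjusted over 3 pairs 0.569 and 0.861). Wnt5a and Fzd4, with its clones averaged, gave r = -0.097 and rho = -0.16 (permutation p = 0.569 and 0.466, adjusted 0.569 and 0.699). Wnt5b and Fzd4 gave r = -0.288 (permutation p = 0.192, adjusted 0.569) and rho = -0.593 (permutation p = 0.00326, adjusted 0.00978). Without the 2 tumors farthest from the median of the first gene, r was 0.091, -0.214 and -0.26 in the same order. The rank relation of Wnt5b and Fzd4 was near 0 after quantile normalization (rho = -0.011, adjusted permutation p = 0.961).

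Array spread moved with both of these genes. In the same 23 tumors the SD over all clones of an array gave rho = 0.585 with Wnt5b (permutation p = 0.0041, adjusted over 12 clones 0.0164) and rho = -0.763 with Fzd4 22p22 (permutation p = 3e-05, adjusted 0.00036). For Fzd4 29a17 rho was -0.402 (permutation p = 0.0576, adjusted 0.115). For Wnt5b the Pearson r was 0.387 (permutation p = 0.0693, adjusted 0.139) and was 0.751 without the 2 arrays farthest in spread, and for Fzd4 22p22 it was -0.835 (permutation p = 2e-05, adjusted 0.00024) and -0.822 without them. The part of array spread in the relation of Wnt5b and Fzd4 was not tested beyond the normalizations given.

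Across all 65 arrays of the 15k type, the genes most like each of these in pattern were read by Pearson r over 7762 other genes, as a description over arrays that share groups. For Wnt5b they were Nop58 (r = 0.869), Synpo (0.86), Basp1 (0.852), Slc9a9 (0.847) and Lima1 (0.846). For Wnt5a the values were lower, with Sh3pxd2b at r = 0.683, Ankfy1 at 0.66, Med24 at 0.651, Eml4 at 0.642 and Aatf at 0.633. For Fzd4 they were Abcd2 (0.95), Dgat2 (0.941), Ablim3 (0.94), Nos3 (0.94) and Nnmt (0.937), among them a peroxisomal transporter of fatty acids, an enzyme of triglyceride synthesis and the nitric oxide synthase of endothelium. The Spearman rho of the Fzd4 pairs was lower, from 0.719 to 0.838.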

How the data were processed

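Cy5 marked the sample and Cy3 the reference on each array. The authors scanned the spotted cDNA arrays, normalized the ratios and measured spot quality, by which they left genes out of their own tests. The deposited values are normalized log2 ratios of sample to reference, with array medians between -0.144 and 0.0431 (15k) and between -0.0641 and 0.018 (8.7k). Spot quality was not analysed here, and every clone was tested. The scale was checked on the values: ratios under 0.01, once divided by 1e-04, lay within 0.00332 of whole numbers. Array spots give no counts, so the number of arrays limits the precision.

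The members and lists were chosen with earlier results of these data known. Groups came from the sample labels. Comparisons used limma 3.58.1 (lmFit, eBayes; R 4.3.3) on clones measured on 50% or more, and no fewer than 2, of the arrays in both groups, with no comparison across array types. Correlations used 100000 permutations, two-sided, in Python 3.11.15 with numpy 2.4.6. Values are given by sample for Wnt5a, Wnt5b, Fzd4 and for clones called with a log2 difference over 1, and other clones by ranges. Pathway genes are those called with the 3 largest log2 differences of a list, and in WntT against VMG those named for WntT against NeuT. The fits were tested on simulated data.

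Alternatives were median centring, quantile normalization, ratios beyond 0.01 or 100 set missing, arrays of SD above 1.3 left out, clones averaged per gene, all groups in 1 fit, eBayes with trend and robust, complete clones, single arrays left out, tail-vein metastases added to NeuM, a block by title number, ratios of arithmetic means and the methods' permutation t-test (10000 permutations, P under 0.001). Scaling to equal spread, neighboring groups in 1 fit, leaving out WntT tumors 66 and 69 and correlation with array SD were added after the values were seen. A further group of 8.7k tumors was left out.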

Additional observations from a re-analysis of the deposited data

Results flagged for a closer look

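In groups of 4 to 10 arrays, 52 sets of values were searched for an array far from the others, and 6 were found, where chance gives about 1 in 20. On the 15k arrays, Wnt5b in hyperplastic gland 7 stood at 0.38 below the other WntH arrays at 1.29 to 1.82. Wnt3a in Wnt-1 metastasis 19 stood at -6.8 below the others at -1.77 to -0.37, on an array with an SD of 1.32. Fzd9 in Wnt-1 metastasis 50 stood at -1.13 below the others at -0.24 to 0.38, and Fzd4 29a17 in Wnt-1 metastasis 62 at -1.33 below the others at -1.14 to -0.98. On the 8.7k arrays, Wnt3a in WntT tumor 92 stood at 0.4 above the others at -0.58 to -0.09, and Fzd5 8e21 in WntT tumor 75 at -2.41 below the others at -1.1 to -0.2.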

How the results depend on the processing

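No called clone turned its direction under the alternatives that keep clones apart, which leaves out averaging per gene. Of the log2 differences of called clones recomputed in this way, 608 stayed the same and 31 kept their direction but were no longer called. Staying the same meant the same direction and side of the threshold. For ratios of arithmetic means it meant the same direction and a shift smaller than the larger group SD. Of the counts of called clones, 147 stayed within 1.5 times the reported count and 13 did not. With all groups in 1 fit, WntH against VMG gave 3 clones and WntM against NeuM 4. WntM against NeuM also gave 4 without arrays of wide spread and 4 with the tail-vein metastases added, and from 1 to 2 with single NeuM arrays left out. With clones averaged per gene NeuT against VMG gave 5 genes. With single VMG or fat arrays left out, fat against VMG gave from 2 to 5. Scaling to equal spread gave 1 clone between the P53-/- and other Wnt-1 tumors. The methods' permutation t-test gave 5 clones in WntT against WntH, and it cannot reach P under 0.001 in WntH against VMG, fat against VMG, NeuM against NeuT or WntM against NeuM, where it was not run as a count. The cause of these changes was not tested. Averaging per gene also left 9 genes in place of 12 clones.

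Quantile normalization turned the Pearson r of Wnt5a and Wnt5b to -0.0838 and that of Wnt5b and Fzd4 to 0.118, and without arrays of wide spread r of Wnt5b and Fzd4 was -0.627 (permutation p adjusted over 3 pairs 0.00675). The labels do not say whether a tumor and a metastasis with the same title number came from the same animal. Correlations between arrays cannot decide this, and the main fits used no pairing. Deviations of arrays with the same number correlated from -0.062 to 0.283 in 7 Wnt-1 pairs and from -0.006 to 0.117 in 3 Neu pairs, and only 1 of the 7 metastases was most like the tumor of its own number. With the replicate block, 0 clones were called in WntM against WntT, 0 in NeuM against NeuT and 0 in the test of the difference between the oncogenes. In fat against VMG the median of all clones was -0.106, the share of calls that were higher was 58.5%, and it was 48.8% after quantile normalization. Between P53-/- and other tumors that share was 33.3%, 45.5% after centring and 60% after quantile normalization.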
